A study of Chenopodium quinoa with 15 samples.

Results

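Sugar transporters carry sucrose, hexoses and polyols across plant membranes, and invertases cleave sucrose into glucose and fructose. In the gene table of quinoa (Chenopodium quinoa) variety NL-6, 71 of 58522 genes had a description that named a bidirectional sugar transporter, a sugar or sucrose transport protein, a hexose or polyol transporter, an ERD6-like sugar transporter, an invertase or a beta-fructofuranosidase. The rule reads the words of the description and no measured value, and only genes with an informative description could be found in this way. By description they comprised 28 SWEETs, 15 sugar transport proteins (STPs), 9 ERD6-like transporters, 4 polyol transporters, 2 sucrose transporters (SUTs), 2 hexose transporters, 7 alkaline/neutral invertases, 2 cell wall invertases, 1 gene described as a fructan 6-exohydrolase-like protein and 1 putative invertase inhibitor. The fructan 6-exohydrolase-like gene entered through a second description that calls it an invertase. All names are those of the best match in another species, mostly sugar beet, so a name such as SWEET9-like gives a resemblance and not a tested function.

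In plants, sucrose made in leaves is loaded into the phloem by proton-driven SUTs and released by SWEETs, which let sugar pass along its gradient in both directions. Cell wall invertases split sucrose outside the cell, and the hexoses are then taken up by the proton-driven STPs, while alkaline/neutral invertases act inside the cell. ERD6-like transporters are mostly known from the vacuole membrane, and polyol transporters carry sugar alcohols and some monosaccharides. Pollen, nectaries and roots depend on imported sugar, and soluble sugars also act as osmolytes in leaves under salt.

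RNA was sequenced from leaves of 14-day-old seedlings submerged in 400 mM NaCl for 8 h (NaCl leaf), from leaves of seedlings of the same age treated with water (leaf), from seedling roots, and from stamens and pistils of newly opened flowers, with 3 replicates of each and 15 libraries in all. All plants were of the same variety. Roots were 3 days old in the design text and 2 days old in the sample labels, and had grown in the dark. Root thus differs from leaf in age and light as well as in organ. Stamens and pistils came from older, flowering plants, which the study grew on soil, whereas it grew the root seedlings on culture medium. The flower organs therefore differ from leaf and root in plant age as well as in organ. Each replicate pooled several plants or organs. Counted reads were 14392481 to 15092661 per NaCl leaf library, 15544918 to 17019602 per leaf library, 14031146 to 16603269 per root library, 12499775 to 14630502 per stamen library and 12696715 to 13886363 per pistil library. Marker genes were counted to check the labelled organs: 16 of 16 tested leaf markers, 15 of 17 root markers, 14 of 26 pollen and anther markers and 7 of 11 pistil markers were highest in their own tissue, and both dehydrins rose under NaCl.

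Stamen libraries gave the members the largest share of their reads, 0.177% to 0.199%, followed by root with 0.133% to 0.160%, pistil with 0.0902% to 0.118%, NaCl leaf with 0.0596% to 0.0653% and leaf with 0.0437% to 0.0522%. The 5 ranges did not overlap. A read in all 3 replicates was found for 49 members in pistil (69.0%, against 61.6% of all genes) and 46 in stamen (64.8%, against 53.4%). It was found for 36 in root (50.7%, against 60.2%), 35 in NaCl leaf (49.3%, against 56.5%) and 30 in leaf (42.3%, against 55.3%). In all 4 untreated tissues, 26 members had such a read. The members' share was thus above that of all genes in the flower organs and below it in root and both leaf groups. Another 7 members had no read in any library and 14 had fewer than 60 reads over all 15. In whole organs, a lower level cannot tell fewer cells of a type from less RNA per cell.

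The make-up of the group differed between tissues when each gene was weighed by the deposited FPKM, reads per gene length and library total. STPs held 55.5% ± 1.28 (SD, n = 3 libraries, as for all such values here) of the members' summed FPKM in stamen, against 23.0% ± 4.52 in pistil, 11.8% ± 1.04 in root and 17.2% ± 1.19 in leaf. SWEETs held 46.3% ± 9.69 in pistil, 32.8% ± 2.27 in root, 28.9% ± 0.997 in stamen and 6.39% ± 0.541 in leaf. The fructan 6-exohydrolase-like gene alone held 26.5% ± 4.42 in root and at most a trace elsewhere. In leaf the putative invertase inhibitor held 27.4% ± 0.523 and the pair of hexose transporters 23.7% ± 1.26. A single STP10-like gene, CqNL-6_031555, made up 43.2% of the stamen sum, and the NEC1-like SWEET CqNL-6_034044 made up 33.7% of the pistil sum.

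**Figure D1:**
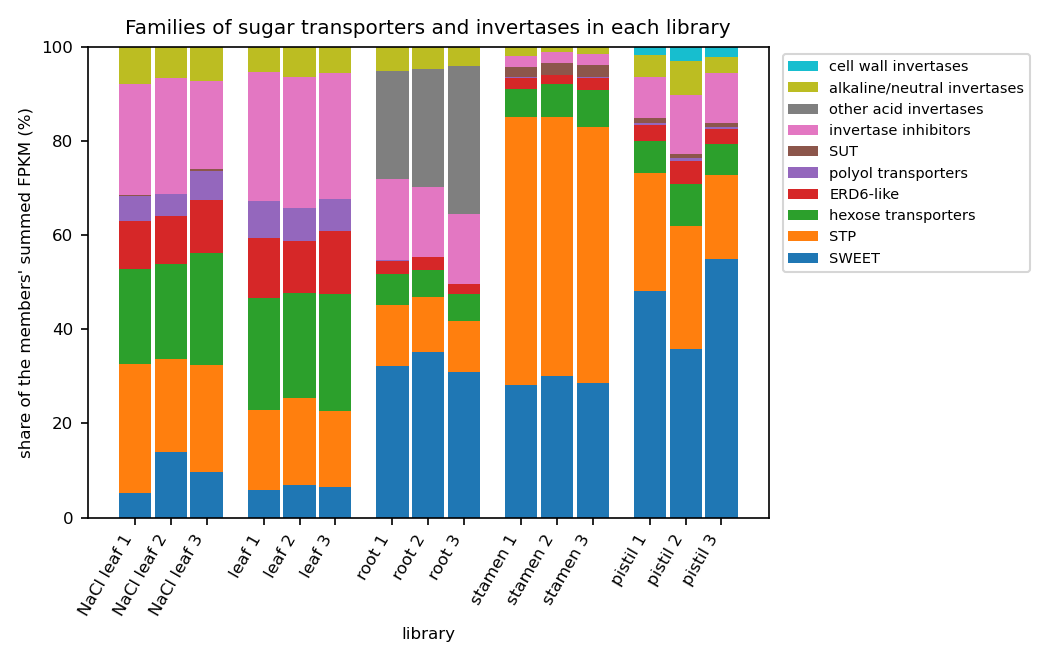
Share of the members' summed deposited FPKM held by each family (y axis, percent), with 1 stacked bar per library for the 15 libraries. STPs fill more than any other family in stamen (55.5% on average), SWEETs in pistil (46.3%), and the other acid invertase class, which is the fructan 6-exohydrolase-like gene, takes 26.5% in root and is not visible elsewhere. FPKM divides by gene length, and the largest single part in stamen comes from an STP10-like model of 483 bases.

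The NaCl comparison asked which of these genes changed in leaves within 8 h of salt. SWEET9-like, both SWEET6b-like genes that could be tested, both STP13 genes and 1 CINV2-like invertase rose, while STP7, 1 polyol transporter 5-like gene and 1 hexose transporter gene fell. Of the 26 members that passed the read filter, 6 rose, which is 23.1%, against 24.0% of all 29201 tested genes, and 3 fell, which is 11.5%, against 22.8% of all genes (edgeR quasi-likelihood test, adjusted p under 0.05). The share that rose was thus close to that of all genes and the share that fell was below it. With libraries scaled by their total, 9 members rose (35.8% of all genes) and STP7 alone fell (15.2% of all genes). The median log2 fold change of the 26 was -0.03, against 0.04 for all genes tested. The summed level of all members was 591, 542 and 588 CPM (read counts relative to library size, scaled by TMM) in the NaCl leaf libraries and 482, 555 and 572 CPM in the leaf libraries, so that the groups overlapped with TMM. As a share of the library total they did not overlap, at 0.0596% to 0.0653% in NaCl leaf and 0.0437% to 0.0522% in leaf. The summed leaf markers were lower under NaCl, at 26889 ± 2048 CPM in NaCl leaf and 36169 ± 1612 CPM in leaf (SD, n = 3 each), with 12 of 16 fallen, and their part in the results was not tested.

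**Figure D2:**
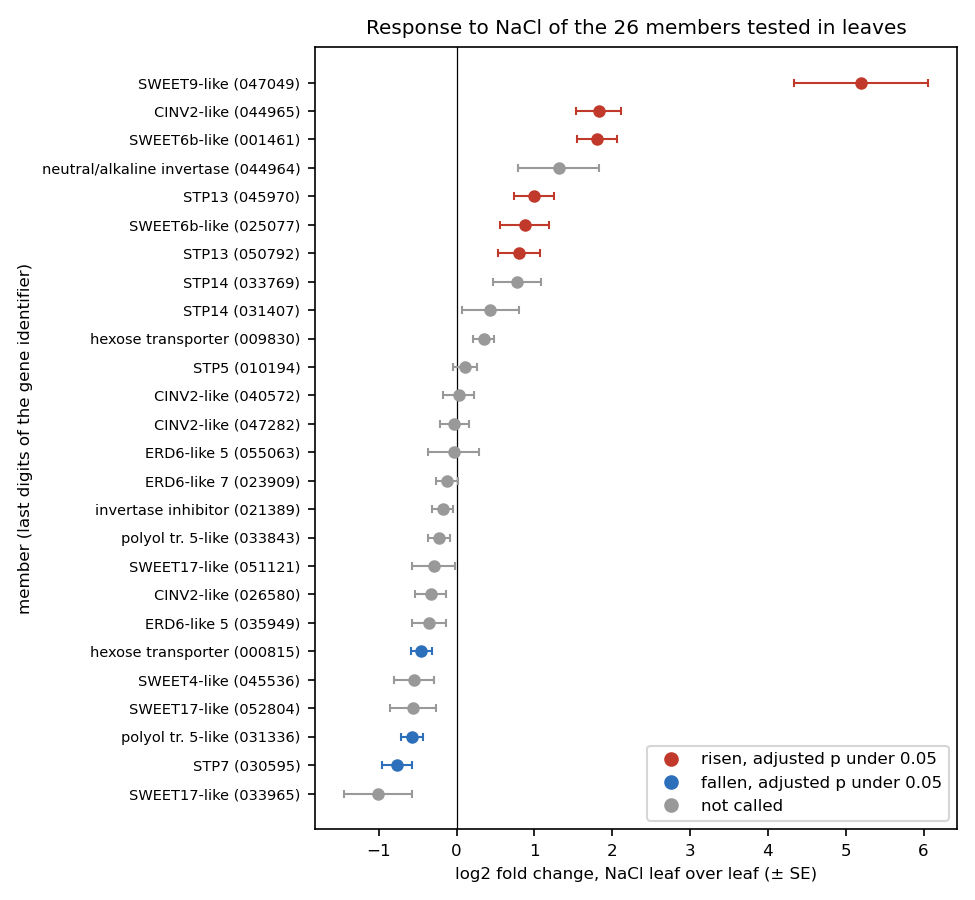
Log2 fold change of NaCl leaf over leaf (x axis, points, with bars of 1 SE) for the 26 members tested in the 3 NaCl leaf and 3 leaf libraries, with risen members in red, fallen ones in blue and those not called in grey. SWEET9-like stands far to the right at 5.19 with the widest bar among the called members, and the other called members lie between -0.76 and 1.83.

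SWEETs held 3 of the 6 risen members, out of 7 SWEETs tested (42.9%, against 24.0% of all genes). SWEET9 exports sucrose in the nectaries of Arabidopsis, and the SWEET9-like gene CqNL-6_047049 (NL-6 genome, chromosome 3, 30979139 to 30980811, minus strand) had 2.58, 21.4 and 10.7 CPM in the NaCl leaf libraries, against 0.142, 0.128 and 0.643 CPM in the leaf libraries. Every NaCl leaf library was above every leaf library, and the NaCl leaf libraries themselves spread about their mean of 11.6 CPM by an SD of 9.43. Its log2 fold change was 5.19 ± 0.86 (SE) with an adjusted p of 0.0012 by edgeR. The like-named copy CqNL-6_023829 on chromosome 13 had 0.420, 1.51 and 1.31 CPM in NaCl leaf and 0, 0.256 and 0.129 CPM in leaf, without overlap, but was too low for the read filter. Without that filter its log2 fold change was 2.95 and its edgeR adjusted p 0.012.

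The SWEET6b-like gene CqNL-6_001461 (chromosome 10, 65711178 to 65714627, plus strand) had 5.10, 6.53 and 4.19 CPM in NaCl leaf against 1.63, 1.28 and 1.61 CPM in leaf. The groups stood well apart, with a log2 fold change of 1.80 ± 0.26 and an edgeR adjusted p of 0.00060. The second one, CqNL-6_025077, had 2.94, 3.14 and 2.16 CPM in NaCl leaf and 1.28, 1.22 and 1.99 CPM in leaf, a log2 fold change of 0.87 ± 0.31 with an edgeR adjusted p of 0.043. Its groups nearly touched, and its call was lost without leaf replicate 1 or 2 or NaCl leaf replicate 1 or 2 (adjusted p 0.104 to 0.140). The other 4 tested SWEETs, 3 of them SWEET17-like and 1 SWEET4-like, had log2 fold changes of -1.01 to -0.30 and were not called.

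STP13 of Arabidopsis takes up hexoses and responds to stress. Here the STP13 gene CqNL-6_045970 (chromosome 6, 30233819 to 30241176, plus strand) had 75.7, 40.0 and 56.4 CPM in NaCl leaf and 21.1, 37.2 and 27.9 CPM in leaf. The lowest NaCl leaf library was only slightly above the highest leaf library. The log2 fold change was 1.00 ± 0.25 with an edgeR adjusted p of 0.011, which stayed under 0.05 without any 1 replicate and was 0.0892 in a fit of all 15 libraries. Its copy on chromosome 15, CqNL-6_050792, had 68.2, 35.5 and 44.9 CPM in NaCl leaf and 19.4, 36.4 and 29.6 CPM in leaf, so that its groups overlapped. Its log2 fold change of 0.80 ± 0.27 passed at an edgeR adjusted p of 0.036 and failed without leaf replicate 1 or 3 or NaCl leaf replicate 1 or 3 (0.0529 to 0.133) and in a fit of all 15 libraries (0.215). Apart from these, the STP14 pair and the single tested STP5 gene lay between 0.11 and 0.78 on the log2 scale and were not called.

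Among the invertases, CqNL-6_044965 (CINV2-like; chromosome 6, 1381169 to 1384296, minus strand), a cytosolic-type alkaline/neutral enzyme, had 10.9, 10.7 and 7.60 CPM in NaCl leaf and 1.56, 3.52 and 3.09 CPM in leaf. All NaCl leaf libraries exceeded all leaf libraries by a wide margin. Its log2 fold change was 1.83 ± 0.29, with an edgeR adjusted p of 0.00093. The next gene model on the same strand, CqNL-6_044964, a short neutral/alkaline invertase model that lies beside it, had 1.80, 1.03 and 1.44 CPM in NaCl leaf and 0.142, 0.769 and 0.772 CPM in leaf, a log2 fold change of 1.31 ± 0.52 that missed the threshold (adjusted p 0.063). The remaining 3 tested invertases, all CINV2-like, had log2 fold changes of -0.33 to 0.03. The putative invertase inhibitor, of a class of small proteins that bind invertases, had 58.4, 57.8 and 45.2 CPM in NaCl leaf and 53.6, 65.7 and 63.7 CPM in leaf and was not called (edgeR adjusted p 0.32).

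STP7, which carries pentoses in Arabidopsis, was represented by CqNL-6_030595 (chromosome 8, 72408337 to 72411754, minus strand) with 7.19, 10.9 and 11.8 CPM in NaCl leaf and 18.3, 17.4 and 15.05 CPM in leaf. The NaCl leaf libraries were all lower, by a log2 fold change of -0.76 ± 0.19 (edgeR adjusted p 0.010). The polyol transporter 5-like gene CqNL-6_031336 (chromosome 14, 4042302 to 4046852, minus strand) had 11.6, 9.97 and 11.3 CPM in NaCl leaf and 14.97, 16.9 and 16.98 CPM in leaf, a log2 fold change of -0.57 ± 0.14 with an edgeR adjusted p of 0.0077. These groups did not overlap either, and with the total library size the call was lost. The second polyol transporter 5-like gene, CqNL-6_033843 on chromosome 8, had 27.7, 24.9 and 34.3 CPM in NaCl leaf and 34.1, 34.5 and 32.7 CPM in leaf and was not called.

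The hexose transporter pair differed in sign. CqNL-6_000815 on chromosome 10 had 69.0, 57.2 and 74.1 CPM in NaCl leaf and 80.8, 92.7 and 100.2 CPM in leaf, a log2 fold change of -0.45 ± 0.14 with an edgeR adjusted p of 0.023. Its copy on chromosome 18, CqNL-6_009830, had 83.7, 87.6 and 101 CPM in NaCl leaf and 62.5, 69.8 and 81.7 CPM in leaf, a log2 fold change of 0.35 ± 0.14 with an edgeR adjusted p of 0.061. Neither pair of groups overlapped. The fall of the first was lost without leaf replicate 2 or 3 or NaCl leaf replicate 2 (adjusted p 0.0708 to 0.0905) and when libraries were scaled by their total (adjusted p 0.23), and the difference between the copies was not tested.

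**Figure D3:**
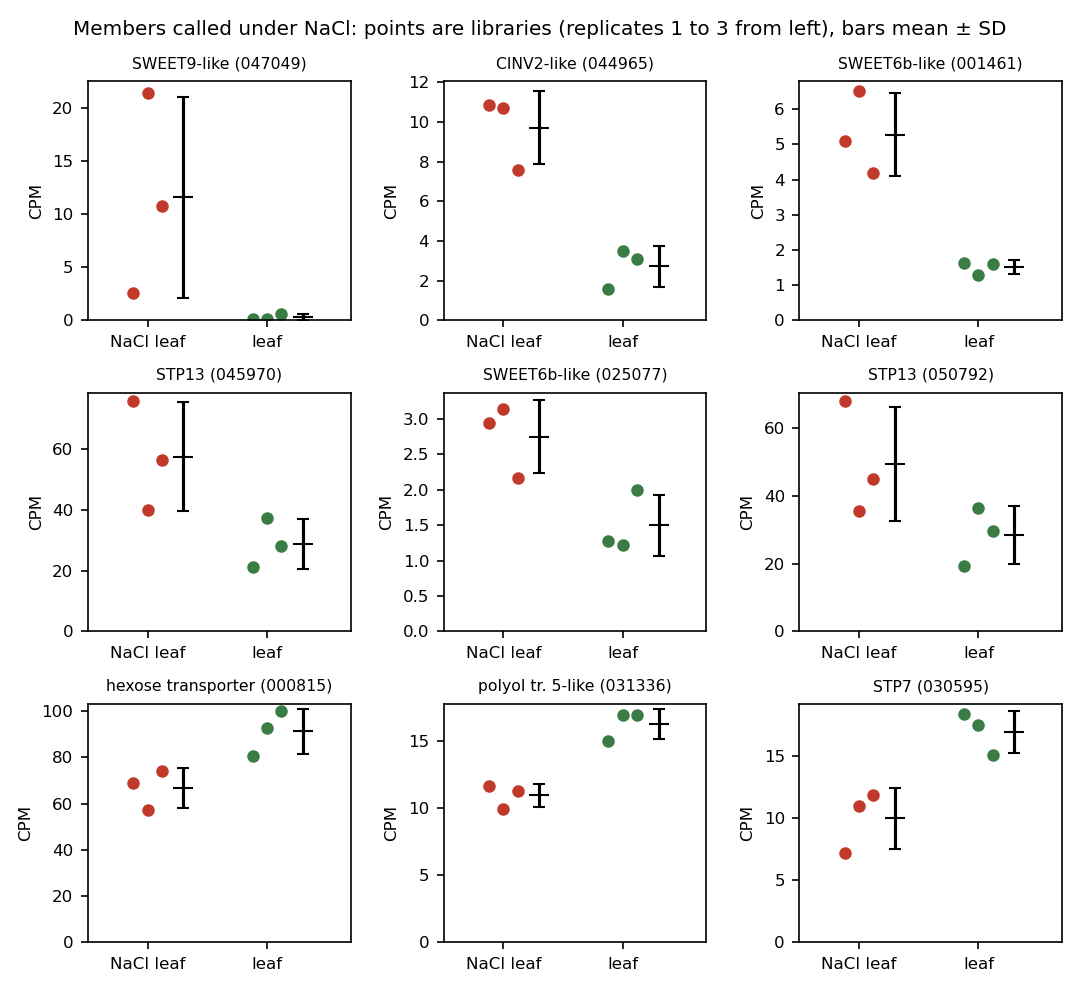
CPM of the 9 members called under NaCl (y axes, from 0) in the 3 NaCl leaf and 3 leaf libraries (points), with the mean and SD beside each group. The 2 groups are clearly apart for SWEET9-like, CINV2-like and SWEET6b-like CqNL-6_001461, whereas those of STP13 CqNL-6_050792 overlap.

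Among members below the read filter, probable polyol transporter 3 CqNL-6_016451 had 0.839, 0.121 and 0.524 CPM in NaCl leaf and no read in leaf, which is at least 7.47-fold higher when 3 reads over the leaf libraries are taken as the floor. SUC2-like CqNL-6_001520, named after the Arabidopsis phloem-loading transporter, had 1.08, 0.242 and 2.097 CPM in NaCl leaf and 0.0710, 0.0641 and 0.322 CPM in leaf, with overlap. The stamen genes SWEET17-like CqNL-6_051989 and SWEET7-like CqNL-6_021615 had at most 0.0655 CPM in a NaCl leaf library, while leaf libraries had 0.213, 0.961 and 0.643 CPM of the first and 0.0710, 0.641 and 0.386 CPM of the second. All 4 passed when every gene with a read was tested (edgeR adjusted p 0.0079 to 0.0395).

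The tissue comparison asked where each member was dominantly expressed. Of the 50 members tested in the 12 untreated libraries, 20 (40%) were highest in stamen, 9 (18%) in root, 4 (8%) in pistil and 3 (6%) in leaf, that is with an edgeR adjusted p under 0.05 and a log2 fold change of at least 1 against each of the other 3 tissues, and 14 met this in no tissue. The shares of all 35954 tested genes that met it were 20.0% for stamen, 10.4% for root, 6.03% for pistil and 11.1% for leaf, so that stamen and root held a larger part of the members than of all genes and leaf a smaller one. These counts move with the scaling of the libraries. The median log2 fold change of stamen over pistil across all genes was -0.19 with TMM and -2.02 with the total library size. Under the total, 13 members were highest in stamen (9.14% of all genes), 11 in root (12.6%), 10 in pistil (16.7%) and 3 in leaf (7.70%). Leaf CPM below come from this fit and are slightly higher than those given for the NaCl comparison.

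**Figure D4:**
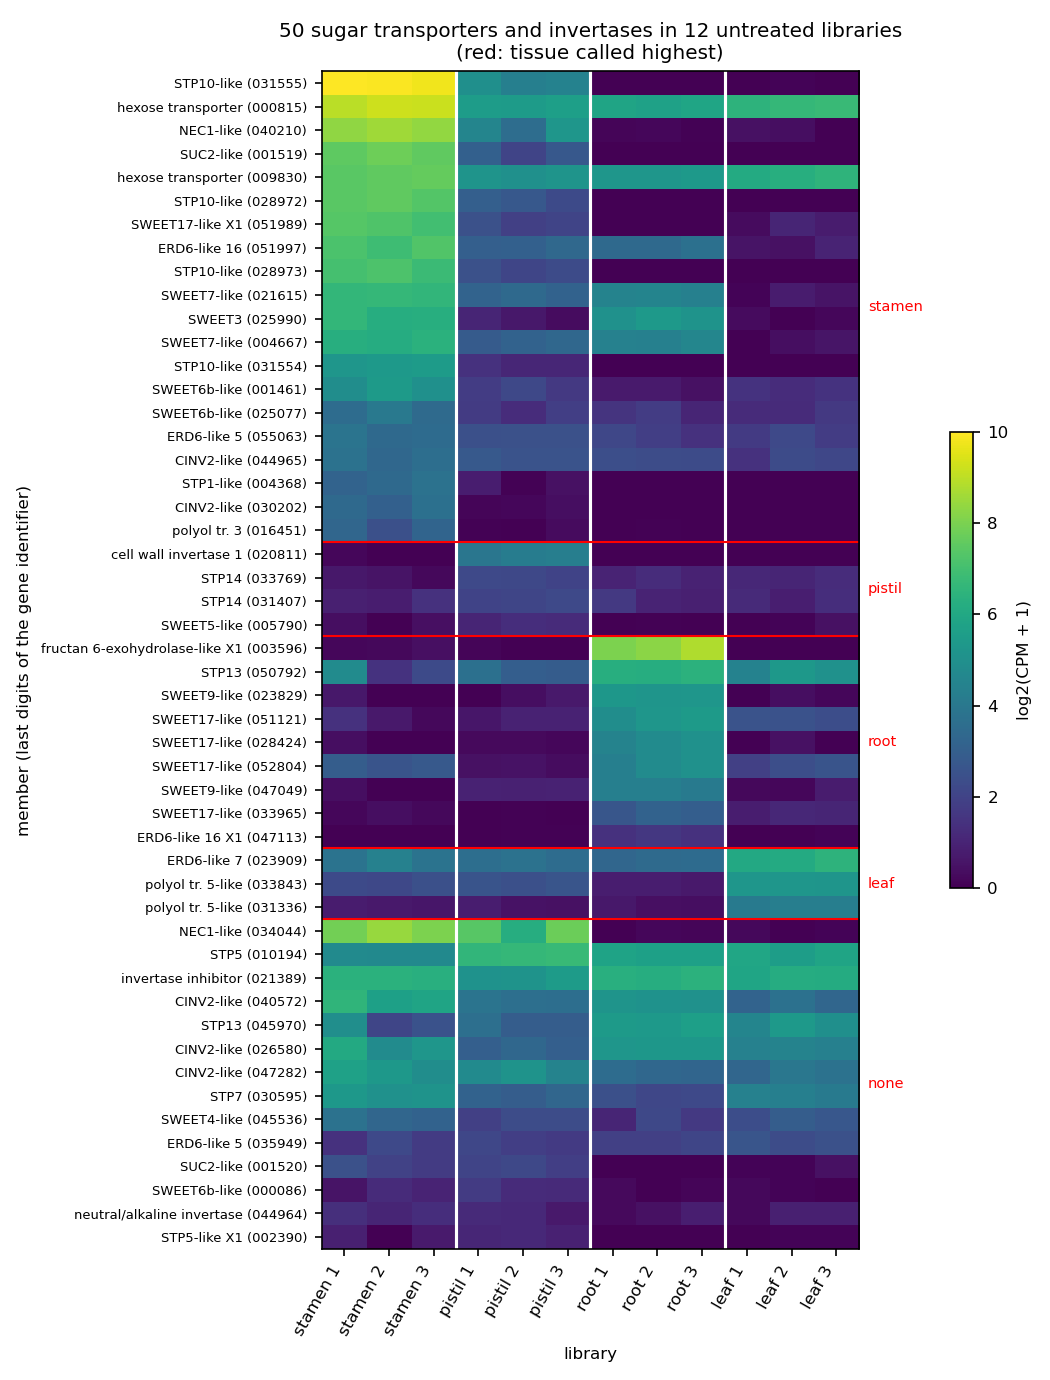
Log2(CPM + 1) of the 50 members tested (rows, named with the last digits of the gene identifier) in the 3 stamen, 3 pistil, 3 root and 3 leaf libraries (columns), grouped by the tissue in which each was called highest (red). The stamen block holds 20 rows (13 members with the total library size), led by STP10-like CqNL-6_031555, and several of its rows are at 0 in root and leaf, while the root block of 9 rows is led by the fructan 6-exohydrolase-like gene.

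The member of highest FPKM in stamen was STP10-like. STP10 is a hexose importer of Arabidopsis pollen tubes, and all 4 STP10-like models were highest in stamen. CqNL-6_031555 (chromosome 17, 53254762 to 53255518, plus strand) had 1023, 990 and 880 CPM in stamen, 30.3, 19.1 and 20.5 CPM in pistil, no read in root and a single read in leaf. Stamen exceeded pistil by a log2 fold change of 5.37 ± 0.19 (edgeR adjusted p 2.2e-13), or 3.515 with the total library size, and root by at least 20190-fold with TMM. Its neighbour CqNL-6_031554 on chromosome 17 and the pair CqNL-6_028972 and CqNL-6_028973 on chromosome 11 averaged 40.9, 172 and 130 CPM in stamen, and none of them had a read in root or leaf. The 4 models are 429 to 969 bases long and lie in neighbouring pairs, and whether a pair is 2 genes or parts of 1 gene is not known. STP1-like CqNL-6_004368 had 7.98, 9.82 and 12.6 CPM in stamen, against 0.764, 0.0442 and 0.376 CPM in pistil, with no read in root or leaf.

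The hexose transporter CqNL-6_000815 had 502, 603 and 586 CPM in stamen, 45.5, 44.5 and 48.7 CPM in pistil, 55.9, 52.4 and 57.2 CPM in root, against 87.1, 101 and 110 CPM in leaf. It was highest in stamen by a log2 fold change of 2.505 ± 0.13 over leaf (edgeR adjusted p 1.2e-12). Its copy CqNL-6_009830 averaged 187 CPM in stamen, 33.9 in pistil, 38.3 in root and 77.6 in leaf, the same order of stamen and leaf, with a smaller log2 fold change of 1.27 ± 0.12 over leaf. That copy was no longer 2-fold higher in stamen with the total library size. STP7 CqNL-6_030595 had 39.5, 32.3 and 33.7 CPM in stamen, against 19.8, 19.0 and 16.5 CPM in leaf, a log2 fold change of 0.93 ± 0.14 (edgeR adjusted p 5.9e-06) that fell short of the fold required and lost its call with the total library size (0.13, adjusted p 0.39).

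Both sucrose transporters had most of their reads in flowers. SUC2-like CqNL-6_001519 (chromosome 10, 65043417 to 65046045, plus strand) had 182, 219 and 186 CPM in stamen, against 7.28, 3.18 and 5.68 CPM in pistil, with no read in root or leaf. Stamen was above pistil by a log2 fold change of 5.18 ± 0.22 (edgeR adjusted p 2.0e-11), or 3.33 with the total library size, and with TMM above root by at least 4101-fold and above leaf by at least 2714-fold. The neighbouring SUC2-like gene CqNL-6_001520 was low, at 4.56, 2.93 and 2.35 CPM in stamen, against 3.15, 3.45 and 2.63 CPM in pistil, which overlapped. That gene had 0.0766, 0.0699 and 0.352 CPM in leaf and no read in root. With the total library size it was called highest in pistil, with a log2 fold change of stamen over pistil of -1.75 (edgeR adjusted p 0.00020). No other member was described as a sucrose transporter.

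Of the 17 tested SWEETs, 7 were highest in stamen (41.2%, against 20.0% of all genes) and 6 in root (35.3%, against 10.4%). With the total library size these were 3 and 6 (9.14% and 12.6% of all genes). NEC1 was named from a petunia nectary gene. By FPKM the NEC1-like pair averaged 146 for CqNL-6_034044 and 138 for CqNL-6_040210 in stamen, below the short SWEET17-like model CqNL-6_051989 at 226.5. CqNL-6_040210 (chromosome 4, 65822087 to 65827391, plus strand) had 326, 383 and 336 CPM in stamen, 22.5, 11.0 and 36.7 CPM in pistil, and at most 0.383 CPM in any root or leaf library. It was higher in stamen than in pistil by a log2 fold change of 3.89 ± 0.29 (edgeR adjusted p 5.3e-10), or 2.04 with the total library size. Its copy CqNL-6_034044 (chromosome 12, 59279363 to 59281377, plus strand) had 231, 350 and 261 CPM in stamen, against 170, 74.5 and 213 CPM in pistil, and at most 0.153 CPM in root or leaf. Stamen was higher than pistil by 0.88 ± 0.26 on the log2 scale (edgeR adjusted p 0.0048), but lower by a log2 fold change of -0.97 with the total library size (adjusted p 0.0019), and the deposited FPKM, which use the total, averaged 146 in stamen and 286 in pistil. The copies thus shared near absence from root and leaf and differed in pistil, where pistil replicate 2 was the lowest library for both.

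Other SWEETs of the stamen group were the SWEET17-like gene CqNL-6_051989 with 165, 150 and 124 CPM in stamen, 4.54, 2.74 and 3.09 CPM in pistil, 0.230, 1.05 and 0.704 CPM in leaf and no read in root, and both tested SWEET6b-like genes that rose under NaCl. CqNL-6_001461 averaged 34.4 CPM in stamen against 2.70 in pistil, 1.64 in leaf and 0.551 in root. CqNL-6_025077 was higher in stamen than in pistil by a log2 fold change of 2.51 with TMM (edgeR adjusted p 4.2e-07). With the total library size this was 0.66 (edgeR adjusted p 0.053) and its stamen call was lost. SWEET3 and the SWEET7-like pair were shared between stamen and root. SWEET3 CqNL-6_025990 had 96.2, 74.2 and 76.2 CPM in stamen, 32.2, 41.3 and 34.2 CPM in root and at most 1.03 CPM in a pistil or leaf library. Its log2 fold change of stamen over root was 1.19 ± 0.17 (edgeR adjusted p 4.9e-06), 0.94 without stamen replicate 1, and with the total library size root was the higher by 0.34 and the test was not passed (adjusted p 0.079). SWEET7-like CqNL-6_021615 and CqNL-6_004667 averaged 97.4 and 77.1 CPM in stamen, against 20.9 CPM each in root, against 0.399 and 0.257 CPM in leaf, and with the total library size neither was 2-fold higher in stamen than in root.

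The 6 SWEETs called highest in root were SWEET17-like and SWEET9-like genes. SWEET17 moves fructose across the vacuole membrane in Arabidopsis roots. The SWEET17-like gene CqNL-6_028424 had 21.2, 27.6 and 32.7 CPM in root, while no library of another tissue exceeded 0.349 CPM, and root was above pistil by a log2 fold change of 7.34 ± 0.37 (edgeR adjusted p 4.2e-12). CqNL-6_051121 averaged 36.0 CPM in root, against 4.60 CPM in leaf, CqNL-6_052804 averaged 26.3 CPM in root, against 5.90 CPM in stamen, and CqNL-6_033965 averaged 6.69 CPM in root, against 1.00 CPM in leaf. Of the 5 tested SWEET17-like members, 4 were therefore highest in root and 1, the short model CqNL-6_051989, in stamen. The SWEET9-like pair was also highest in root: CqNL-6_023829 had 38.5, 36.0 and 37.4 CPM there and CqNL-6_047049 19.1, 19.1 and 16.2 CPM, against at most 0.944 CPM in any library of the other untreated tissues. For CqNL-6_047049, the NaCl leaf mean given above of 11.6 CPM comes from another fit and was not compared with root.

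Of the STP13 pair, 1 gene was called highest in root. CqNL-6_050792 had 76.7, 74.4 and 84.7 CPM in root, 20.9, 39.7 and 32.4 CPM in leaf, 12.1, 7.03 and 6.603 CPM in pistil and 27.7, 1.76 and 3.69 CPM in stamen. It was higher in root than in leaf by a log2 fold change of 1.34 ± 0.43 (edgeR adjusted p 0.0096), which DESeq2 did not call (adjusted p 0.116). CqNL-6_045970 had 43.1, 40.4 and 48.4 CPM in root, against 22.7, 40.6 and 30.6 CPM in leaf, which overlapped (log2 fold change 0.49 ± 0.40, adjusted p 0.29), while with the total library size root was the higher by 1.22 (adjusted p 0.010) and the gene was called highest in root. For both genes stamen replicate 1 stood far above the other 2 stamen libraries, and without it the root to leaf difference of CqNL-6_045970 was 0.50 with an adjusted p of 0.033.

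The fructan 6-exohydrolase-like gene CqNL-6_003596 (chromosome 11, 5669384 to 5673944, plus strand) was the strongest root member. Enzymes of this name remove fructose from fructans and are related to cell wall invertases. It had 259, 303 and 443 CPM in root, 0.143, 0.147 and 0.336 CPM in stamen, 0.0899, 0 and 0 CPM in pistil and no read in leaf. Root was above leaf by at least 4640-fold and above stamen by a log2 fold change of 10.64 ± 0.36 (edgeR adjusted p 9.1e-14). Under NaCl it remained without a read in leaves.

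A cell wall invertase marked the pistil. CqNL-6_020811 (chromosome 13, 63314841 to 63318193, plus strand), described as beta-fructofuranosidase, insoluble isoenzyme 1, had 14.1, 17.3 and 18.6 CPM in pistil, a single read in stamen and none in root or leaf. Pistil was above root by at least 349-fold and above leaf by at least 231-fold, and the ratio to stamen was 331 with a counting interval of 59.3 to 13080 (95%, exact, counting error only). The second cell wall invertase, CqNL-6_046204, had no read in any library. Among transporters, STP14, a galactose carrier in Arabidopsis, was higher in pistil: CqNL-6_031407 had 3.01, 3.27 and 3.59 CPM in pistil and at most 2.17 CPM in any other library, and CqNL-6_033769 had 3.60, 3.53 and 3.05 CPM in pistil and at most 1.41 CPM elsewhere. The fourth member called in pistil was SWEET5-like CqNL-6_005790, with 1.03, 1.46 and 1.34 CPM there and at most 0.352 CPM in any other library. STP5 CqNL-6_010194 had 94.9, 99.2 and 107 CPM in pistil and 59.3, 47.0 and 55.8 CPM in leaf, a log2 fold change of 0.89 ± 0.11 (edgeR adjusted p 5.5e-07), without overlap but under the fold required, whereas with total library size or upper quartile scaling it was called highest in pistil.

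Leaf was the tissue of the polyol transporter 5-like pair and of ERD6-like 7. In Arabidopsis, polyol transporter 5 is a broad carrier of polyols and monosaccharides. CqNL-6_033843 (chromosome 8, 3370573 to 3374854, plus strand) had 36.8, 37.6 and 35.8 CPM in leaf, 5.13, 4.37 and 5.14 CPM in pistil, 3.71, 3.52 and 4.36 CPM in stamen, against 0.756, 0.720 and 0.620 CPM in root, with a log2 fold change of leaf over pistil of 2.91 ± 0.13 (edgeR adjusted p 4.8e-13). Its copy CqNL-6_031336 had 16.2, 18.4 and 18.6 CPM in leaf and at most 0.719 CPM in any library of the other tissues. ERD6-like 7 CqNL-6_023909 (chromosome 13, 21650430 to 21654827, minus strand) had 65.3, 68.0 and 88.2 CPM in leaf, against 12.8, 20.2 and 12.9 CPM in stamen, its next tissue (log2 fold change 2.26 ± 0.17, edgeR adjusted p 3.5e-10). A like-named family member went the other way: ERD6-like 16 CqNL-6_051997 had 145, 117 and 156 CPM in stamen and at most 0.986 CPM in leaf.

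Of the 7 alkaline/neutral invertases, 2 of the 6 tested were highest in stamen (33.3%, against 20.0% of all genes), 4 in no tissue, and CqNL-6_012267 had no read in any library. CqNL-6_030202 (CINV2-like) had 9.70, 7.33 and 11.9 CPM in stamen, at most 0.293 CPM in pistil and no read in root or leaf. CqNL-6_026580 (CINV2-like), the most abundant of the family by mean FPKM, had 66.4, 27.4 and 37.1 CPM in stamen, 37.6, 38.4 and 38.5 CPM in root, 20.1, 21.3 and 19.6 CPM in leaf and 7.06, 9.06 and 7.15 CPM in pistil. Stamen and root overlapped (log2 fold change 0.20 ± 0.21, edgeR adjusted p 0.38), and their order turned without stamen replicate 1, at -0.37, and with the total library size, at -1.34. The salt-responsive CqNL-6_044965 had 12.7, 9.09 and 11.1 CPM in stamen, 5.94, 4.86 and 4.93 CPM in pistil, 4.28, 3.98 and 3.83 CPM in root, against 1.68, 3.84 and 3.38 CPM in leaf, and its lead in stamen over pistil of 1.06 ± 0.22 (edgeR adjusted p 0.00029) turned to -0.79 with the total library size. The putative invertase inhibitor CqNL-6_021389 (chromosome 9, 3503220 to 3508996, minus strand) had 81.8, 83.3 and 79.2 CPM in stamen, 78.9, 73.4 and 84.1 CPM in root, 57.8, 71.7 and 69.7 CPM in leaf and 33.7, 34.1 and 44.05 CPM in pistil. Stamen and root overlapped, and pistil stood clearly below both, by log2 fold changes of 1.13 ± 0.12 for stamen over pistil and 1.08 ± 0.12 for root over pistil. With the total library size stamen was below root, by a log2 fold change of -1.49, and below pistil, by -0.73.

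Pistils of opened flowers can carry pollen, so the pistil level of the stamen members was set beside that of pollen and anther genes. The 30 genes of that list summed to 30354 to 31993 CPM in stamen, 954 to 1278 CPM in pistil, 895 to 1211 CPM in root, against 209 to 240 CPM in leaf. Only 14 of the 26 tested list genes were called highest in stamen, and 2 others were called highest in pistil. A subset of 5 genes that were highest in stamen and had at most 5 reads over the root and leaf libraries was used for comparison. Their pistil levels were 2.08% to 3.15% of their stamen level. This range holds for that chosen subset, and the percents of the other list genes are not given here. The SUC2-like gene CqNL-6_001519 stood at 2.75%, the 4 STP10-like models at 2.41% to 3.19%, SWEET17-like CqNL-6_051989 at 2.37%, CINV2-like CqNL-6_030202 at 1.78%, polyol transporter 3 at 1.18% and STP1-like at 3.90%. The NEC1-like gene CqNL-6_040210 stood higher, at 6.72%. These percents hold for the TMM scaling, and with the total library size the pistil levels stood nearer to those of stamen. The log2 fold change of stamen over pistil for CqNL-6_031555 was then 3.515 instead of 5.37. The part of pollen in these pistil values was not tested.

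**Figure D5:**
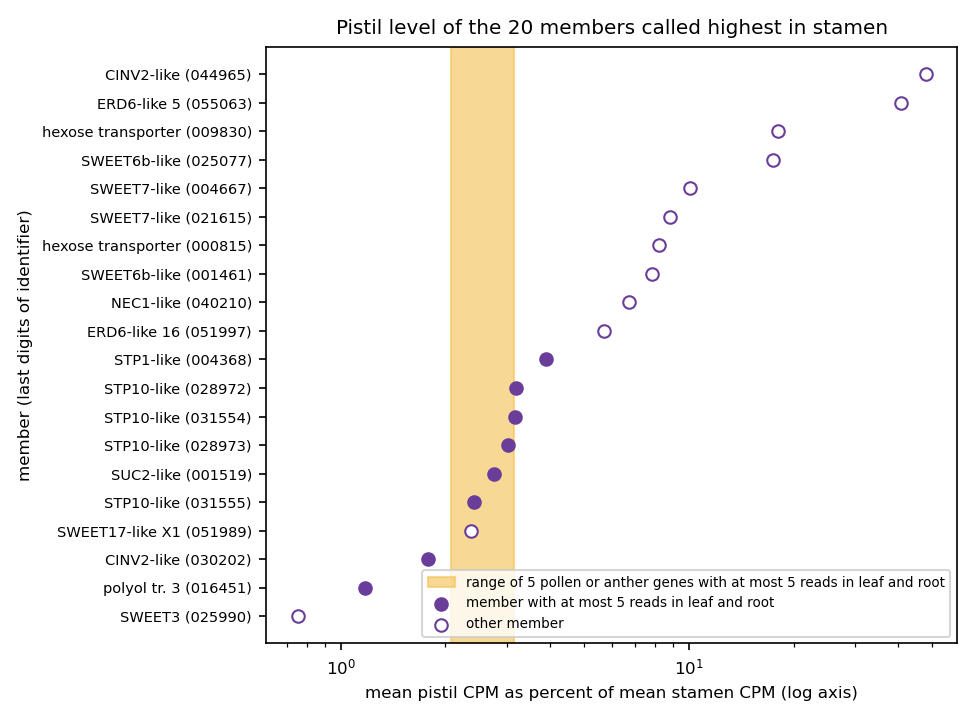
Mean pistil CPM as a percent of mean stamen CPM (log axis) for the 20 members called highest in stamen with TMM. Filled points are members with at most 5 reads in root and leaf. The band is the range of 5 pollen or anther genes of the same kind, a chosen subset of the 30 listed. The filled points lie at 1.18% to 3.90%, around the band of 2.08% to 3.15%, and the open points reach 47.9% for CINV2-like CqNL-6_044965. All percents are TMM-scaled. With the total library size pistil was the higher for CqNL-6_044965 and ERD6-like 5 CqNL-6_055063 (log2 fold changes of stamen over pistil -0.79 and -0.555).

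Quinoa is an allotetraploid, and many members had a copy with the same best match. The 71 members held 23 such groups with 56 members, and 19 of them were pairs, all on 2 different chromosomes. In 13 groups at least 2 members were tested across tissues, and in 12 of these the copies had their highest mean in the same tissue with TMM, or in 11 with the total library size, where the NEC1-like pair also parted. The exception with TMM was SWEET6b-like, with CqNL-6_000086 highest in pistil at 1.64 CPM and the other 2 in stamen. The same call was given to all tested copies in 9 groups. The sources used here do not say how reads matching several copies were counted, so the values of near-identical copies are uncertain against each other.

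Neighbouring steps of sucrose metabolism were read from 34 further genes found by description, namely sucrose synthases, sucrose-phosphate synthases, hexokinases, fructokinases, glucose-1-phosphate uridylyltransferases, and inositol, plastidic glucose and monosaccharide-sensing transporters. Under NaCl, 8 of the 25 tested rose (32%, against 24.0% of all genes) and 5 fell (20%, against 22.8%), or 12 and 4 with the total library size (35.8% and 15.2% of all genes), with a median log2 fold change of 0.27. Sucrose synthase, which cleaves sucrose reversibly, held 3 of the risen genes and 1 of the fallen. CqNL-6_008236 (sucrose synthase) had 43.9, 50.5 and 34.5 CPM in NaCl leaf and 6.88, 9.29 and 9.58 CPM in leaf, without overlap (log2 fold change 2.32 ± 0.19, edgeR adjusted p 5.5e-05), and CqNL-6_030441 (sucrose synthase) had 9.35, 14.1 and 13.7 CPM in NaCl leaf and 25.4, 32.7 and 23.9 CPM in leaf (-1.14 ± 0.19, edgeR adjusted p 0.0013). Of the 5 genes found under fructokinase, 1 named probable fructokinase-4 rose and 3 fell, 1 of them named fructokinase-1 and 2 named fructokinase-like 2, a chloroplast protein that in Arabidopsis is known for plastid transcription and not for phosphorylating fructose, and both plastidic glucose transporter 2 genes rose. CqNL-6_046501 (inositol transporter 1-like) rose by a log2 fold change of 3.22 ± 0.49 with 4.86, 4.41 and 1.97 CPM in NaCl leaf and 0.213, 0.320 and 0.643 CPM in leaf.

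Across tissues, 27 of these genes were tested, and 6 were highest in stamen (22.2%, against 20.0% of all genes), 6 in root (22.2%, against 10.4%), 3 in leaf (11.1%, against 11.1%) and 2 in pistil (7.41%, against 6.03%). The stamen, leaf and pistil shares were close to those of all genes, and with the total library size only 2 were highest in stamen (9.14% of all genes). The leaf genes were fructokinase-1 and both fructokinase-like 2 genes, the pistil genes 2 inositol transporter 1-like genes, and all 3 monosaccharide-sensing protein 2 genes, which are vacuolar sugar carriers, were highest in root, as were 3 of the 8 tested sucrose synthases. Another 4 sucrose synthases were highest in stamen, among them CqNL-6_008236 (sucrose synthase), the most strongly risen under NaCl, at 272 CPM in stamen, 10.5 CPM in pistil, 9.83 CPM in root, against 9.35 CPM in leaf.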

How the data were processed

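The authors cleaned the reads and aligned them to the genome of NL-6. The aligner was HISAT2, for which the submitters' processing notes give version 2.1.0, and HTSeq counted reads per gene. The deposited table holds these counts, not normalized, and the FPKM values the authors computed from the counts, gene lengths and library totals. The sources used here state neither the strand setting nor how multiply matching reads were treated. Groups and replicates came from the sample titles, and 0 columns were left without a sample.

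Tests used the counts. Genes that passed edgeR's read filter entered its quasi-likelihood test (edgeR 4.0.16, R 4.3.3) after TMM scaling, with Benjamini-Hochberg adjustment over all tested genes. The salt fit held the 6 leaf libraries, the tissue fit the 12 untreated ones. CPM were TMM-scaled within each fit. Errors of fold changes are SEs. The study used DESeq, and DESeq2 1.42.0 was an alternative here, beside other scalings, no read filter, the replicate number as a block, all 15 libraries in 1 fit, other fold minimums and each replicate left out in turn. The edgeR test was checked on simulated counts for NaCl leaf over leaf and leaf over root only. That simulation held no general shift between groups, such as that between stamen and pistil, so it does not bear on the choice of scaling. No pair of libraries was identical, and p-values measure the spread between pooled samples, which may be partly technical.

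The description words that define the members, and the other gene lists, were chosen with earlier results of these data known, and the members then followed from the words. Named by rule were called salt members of at least 1 CPM whose groups did not overlap (up to 8 per direction), up to 4 members of at least 5 CPM per tissue with the largest smallest fold, and the member of highest mean FPKM per family. All other members and pathway genes named were chosen after their values were seen. The search for fructokinase also found phosphofructokinases, which were removed by title. Gene positions are those of the deposited table. The RefSeq gene table given for reference describes a different assembly, and 0 of the NL-6 identifiers were found in it. Figures used Python 3.11.15 and matplotlib 3.10.9.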

Additional observations from a re-analysis of the deposited data

How the results depend on the processing

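With the total library size, 1 member fell under NaCl (15.2% of all genes) in place of 3. Across tissues, 13 were highest in stamen (9.14%) in place of 20 and 10 in pistil (16.7%) in place of 4. Of the pathway genes, 2 were highest in stamen (9.14% of all genes) in place of 6. The same setting turned the NaCl log2 fold changes of CqNL-6_033843 (0.025), CqNL-6_023909 (0.13) and CqNL-6_021389 (0.073), which were not called, and those of stamen over pistil for CqNL-6_044965 (-0.79) and CqNL-6_034044 (-0.97) and of stamen over root for CqNL-6_026580 (-1.34) and CqNL-6_021389 (-1.49). Further member contrasts turned as well. Of 36 called for stamen over pistil with TMM, 7 turned, and 6 of these passed the other way. Among them, ERD6-like 5 CqNL-6_055063, called highest in stamen with TMM, went from 1.30 to -0.555 (edgeR adjusted p 0.038). Of 44 called for root over stamen, 4 turned, and 2 of these passed the other way. The median of all genes moved from 0.04 to 0.29 for NaCl leaf over leaf. Falling members numbered 5 of 50 tested without the read filter (17.1% of all genes) and 7 of 50 with all 15 libraries in 1 fit (20.7%). An absolute log2 fold change of at least 1 left 3 rising and 0 falling members (10.5% and 10.6% of all genes), where the edgeR test without it gave 6 and 3. A minimum of 2 left 2 members highest in pistil (2.54% of all genes).

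Leaving out 1 replicate gave 5 to 7 rising members (18.2% to 22.6% of all genes) and 2 to 5 falling ones (17.9% to 22.6%). It gave 18 to 21 stamen members (18.7% to 20.2% of all genes) and 4 to 5 pistil members (5.5% to 6.03%). Root held 9 (10% to 10.9%) and leaf 3 (10.8% to 11.3%). The 5 falling members came without NaCl leaf replicate 3, which added CqNL-6_033843 and SWEET4-like CqNL-6_045536. The difference of stamen over root for CqNL-6_021389 turned to -0.14 with upper quartile scaling, -0.01 without root replicate 2, and -0.08, -0.10 and -0.06 without stamen replicate 1, 2 and 3, and reached 0.088 without root replicate 3. That of CqNL-6_026580 ranged from -0.37 without stamen replicate 1 to 0.32 without stamen replicate 2, and the NaCl change of CqNL-6_023909 from -0.20 without NaCl leaf replicate 3 to 0.015 without leaf replicate 3. SWEET6b-like CqNL-6_025077 also lost its call with upper quartile scaling, the DESeq2 test, all 15 libraries in 1 fit, no read filter and the replicate block (adjusted p 0.0514 to 0.0757). The cause of these changes was not tested.

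Samples with the same replicate number did not deviate together (correlations of -0.111 to 0.0142 in the salt fit and -0.0581 to 0.0492 in the tissue fit), and the main fits did not pair them. Whether they were grown or harvested together cannot be told from these correlations. With a replicate block, 4 members rose (21.8% of all genes), without CqNL-6_025077 and STP13 CqNL-6_050792 (edgeR adjusted p 0.0665), and 3 fell (21% of all genes). In that setting 20, 9, 4 and 3 were highest in stamen, root, pistil and leaf (19.9%, 10.3%, 5.92% and 11.1% of all genes). The rise of SWEET9-like CqNL-6_047049 (4.39 to 6.34), CINV2-like CqNL-6_044965 (1.55 to 2.08) and SWEET6b-like CqNL-6_001461 (1.62 to 2.06) passed under all 13 alternatives, as did the fall of STP7 CqNL-6_030595 (-0.92 to -0.52). Depth limits the 45 members below the salt filter, where a few reads decide.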
